A study of Mus musculus with 12 samples.

Results

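The mouse genome's genes for potassium channels and their subunits were described here as every protein-coding gene whose symbol begins with Kcn, which gave 83 of the 28997 genes in the tables, of which 80 are described. These 80 were sorted into 6 channel classes, and 37 were expressed, meaning a total of at least 100 normalised reads over the 12 libraries. The limit left Kcnt2 (100 normalised reads in total, a sodium-activated channel) just inside and Kcnd3 (99.0 normalised reads) just outside. RNA was sequenced from the soleus, a postural calf muscle with many slow fibres, of 12 mice. All carried a Cre recombinase driven by Cdh5, a gene of endothelial cells. Per the labels there were 4 groups of 3 mice, namely Cdh5Cre-NOX1CKO and Cdh5cre-WT mice, each on high fat diet or chow diet for 8 weeks. The age, sex and strain of the mice are not given in the labels. The deposited tables compare groups coded G1 to G4, and the labels do not say which genotype or diet each code stands for. The codes are therefore kept as names, and none of the differences below can be ascribed to diet or genotype.

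Potassium channels let potassium leave the cell and so bring the membrane back to rest after an action potential. In a muscle fibre the inward rectifiers hold the resting potential, voltage-gated channels end the action potential, and ATP-sensitive and calcium-activated channels open under metabolic load or when calcium rises. Blood vessels, nerve sheaths and connective tissue of the muscle express channels of their own, and in whole-muscle RNA fewer cells of a type and less RNA per cell cannot be told apart.

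The tables summed to a mean of 24905255 normalised reads per library, and the library size factors spanned 0.787 to 0.938 in G4, 0.797 to 1.16 in G3, 0.986 to 1.25 in G2 and 0.931 to 1.06 in G1. The tables give no value per library, but the reads of a gene in each library could be worked back under an assumed count model. The total, 3 fold changes and their p-values of a gene were used, and only 1 set of whole numbers in the range searched matched. This succeeded for all 37 expressed channel genes. The 12 libraries are separate animals per the labels, and library numbers used here are not tied to animal numbers. Animal numbers of the chow mice all lie below those of the high-fat mice, so diet and the order of the numbers cannot be told apart. The targeted gene Nox1 had a total of 25.2 normalised reads over the 12 libraries per the authors' deposited tables, too few to check any label. The defining slow fibre gene Myh7, the slow myosin heavy chain, was abundant, at a group mean of 240300 normalised reads in G4, 226936 in G3, 311382 in G2 and 221530 in G1. All 6 neuron markers were near 0, with a summed mean of 6.29 normalised reads per library in G4, 10.9 in G3, 4.51 in G2 and 5.75 in G1.

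Expression of the 80 genes was concentrated in a few. Levels of different genes were compared as RPKM, normalised reads per kilobase of transcript at a common library depth. The voltage-gated channel Kcna7 stood first at 41.9 RPKM, followed by Kcnj11 at 40.5, the pore subunit of the ATP-sensitive channel. The inward rectifiers Kcnj2 and Kcnj12, which set the resting potential of the fibre, had 16.9 and 12.8 on the same scale. The large-conductance calcium-activated channel Kcnma1 had 11.6, and Kcnc1, a fast voltage-gated channel of the Kv3 family, had 11.2. Kcnj8, the ATP-sensitive pore known from vascular smooth muscle and pericytes, had 10.1, and none of the others described exceeded 6.18.

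**Figure D1:**
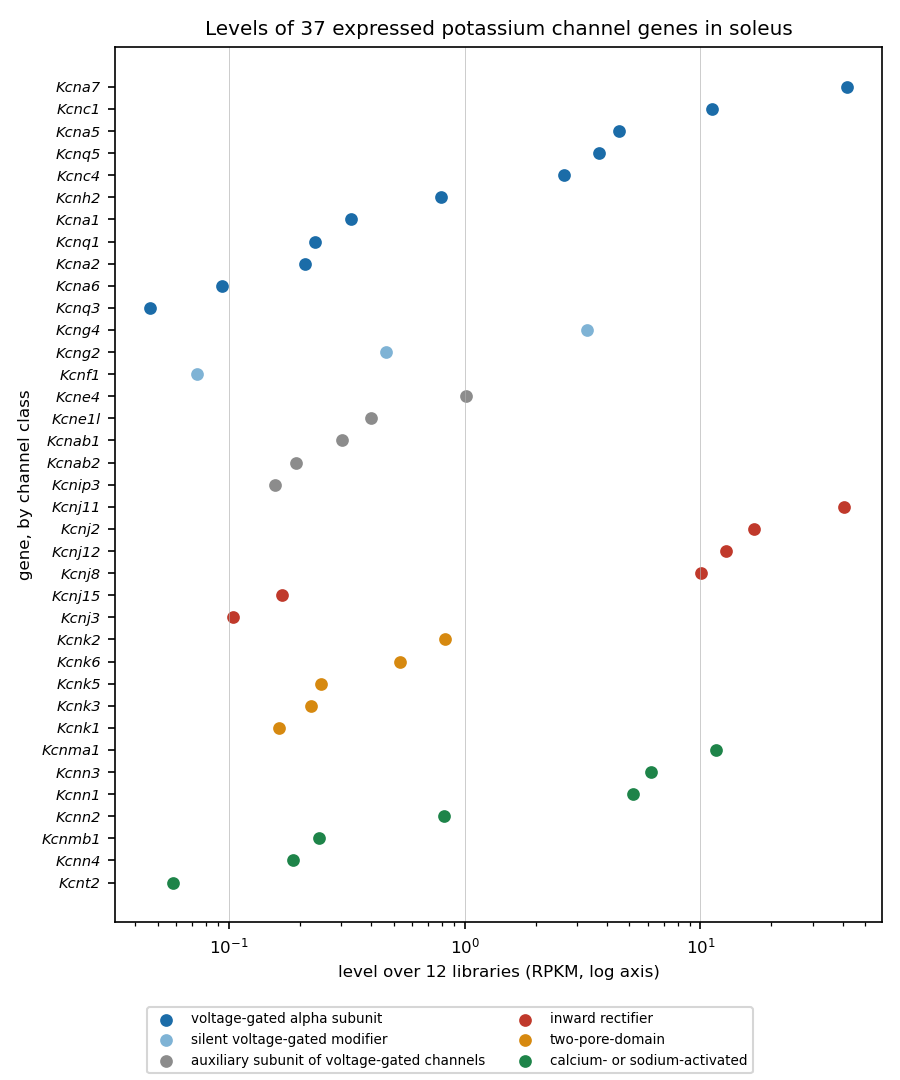
Level of each of 37 expressed potassium channel genes over the 12 libraries, in RPKM on a log axis, grouped and coloured by channel class. Kcna7 (41.9) and Kcnj11 (40.5) lie farthest to the right, and the lowest gene is Kcnq3 (0.0465).

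By class, 11 of 26 pore-forming voltage-gated genes were expressed, and the class held 32.6% of the reads of the 80 genes. Of the inward rectifiers 6 of 14 were expressed, with 38.2% of the reads. These shares count all members of a class, expressed or not. Of the calcium- or sodium-activated genes 7 of 11 were expressed, with 25.3% of the reads. The silent modifiers, which form no channel alone and alter the voltage-gated channels they join, had 3 of 8 expressed with 2.08%. The two-pore-domain or leak channels had 5 of 9 expressed with 1.02%, and auxiliary subunits of voltage-gated channels 5 of 12 with 0.865%. The other 43 genes did not reach the limit, among them Kcnd1, Kcnd2 and Kcnd3 of the Kv4 family and the auxiliary Kcnip2, with 76.3, 88.8, 99.0 and 79.5 normalised reads in total. Summed over the 37 expressed genes, channel reads were 16901 to 19604 per library in G4, 17134 to 18329 in G3, 17904 to 18314 in G2 and 17413 to 18869 in G1, ranges that overlap in every pair.

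Kcnc4 was the 1 of the 80 genes that was called, in G3 against G1 and in the mean of G3 against G1 and G4 against G2. This fast inactivating channel of the Kv3 family known from fast skeletal muscle lies on chromosome 3 (107438303 to 107459552, minus strand, GRCm38). It had 148, 176 and 214 normalised reads in G4 and 106, 156 and 183 in G3, against 301, 337 and 243 in G2 and 314, 484 and 237 in G1. All 6 libraries of G4 and G3 lay below all 6 of G2 and G1, although the highest value of G4 (214) came close to the lowest of G1 (237). Per the authors' deposited table Kcnc4 fell in G3 against G1 by 1.23 on the log2 scale, at an adjusted p of 0.0037 (implied standard error 0.265, taken from the log2 and its p). For G4 against G2 the authors' deposited table gave a log2 of -0.72 at an adjusted p of 0.206 (implied standard error 0.265). Over both comparisons the mean log2 of Kcnc4 was -0.97 (standard error 0.187, adjusted p over all 15494 expressed genes = 5.58e-05), and this mean was called in every fit that left out 1 library.

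The call of Kcnc4 in G3 against G1 rested on single libraries. Without library 2 of G1, the highest of the 12, its log2 was -0.90 with an adjusted p of 0.435, and without library 1 of G3, the lowest, it was -1.03 with an adjusted p of 0.158. A limma voom fit of the recovered reads, which estimates the error from the residuals, gave a log2 of -1.23 with an adjusted p of 0.173, while for the mean of both comparisons limma gave an adjusted p of 0.0382. The coefficient of variation of Kcnc4 within groups was 29.8%.

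**Figure D2:**
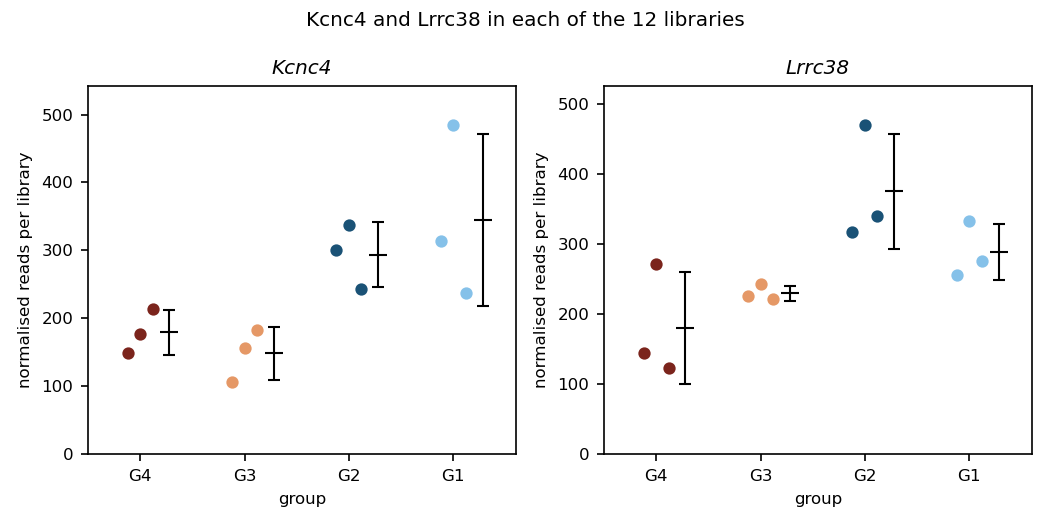
Normalised reads of Kcnc4 and of Lrrc38, a gamma subunit of the Kcnma1 channel, in each of the 12 libraries (points) by group, with the mean and SD of each group of 3 beside them. For Kcnc4 the 6 libraries of G4 and G3 (106 to 214) lie below the 6 of G2 and G1 (237 to 484), and for Lrrc38 the libraries of G4 (123 to 271) lie below those of G2 (317 to 469).

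Values of fast fibre markers were lower in the same comparisons. The 13 fast fibre markers had a summed group mean of 1161350 normalised reads in G4 and 1112100 in G3, against 1269130 in G2 and 1354550 in G1. In G3 against G1 their median log2 was -0.38 with 1 of 13 positive, and in G4 against G2 it was -0.20 with 0 of 13 positive, and none was called in either comparison. In the mean of both, where Kcnc4 was called, 0 of 13 were positive and 1 was called lower, Casq1, the calcium-binding protein of fast fibre stores (log2 -0.26, adjusted p = 0.0298). The fast myosin heavy chain Myh4 had a group mean of 19194 normalised reads in G4, 18192 in G3, 24222 in G2 and 58846 in G1, and the fast fibre actin-binding gene Actn3 had 5717, 3002, 6778 and 11002 in the same order. In G3 against G1 the unadjusted p was 0.34 for Myh4 and 0.122 for Actn3 per the authors' deposited table. Myh2, the fast marker with the most reads, had 358982 in G4, 373860 in G3, 385555 in G2 and 373537 in G1. The 10 slow fibre markers had a median log2 of -0.01 in G3 against G1 with 5 of 10 positive. In G4 against G2 it was -0.21 with 0 of 10 positive, and in the mean of both -0.13 with 2 of 10 positive. None of the slow markers was called. The part of fibre type in the fall of Kcnc4 was not tested.

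Markers of the other cell types were measured beside Kcnc4. None of the 8 smooth muscle and pericyte markers was called in G4 against G2 or G3 against G1. The 7 with recovered reads summed to 5360 to 6119 normalised reads per library in G4, 4898 to 5420 in G3, 4417 to 5606 in G2 and 4583 to 5519 in G1, ranges that overlap between all pairs. These sums leave out Rgs5, which held most reads of the list. Its group means were 11223 in G4, 11882 in G3, 11167 in G2 and 10527 in G1. Of 10 endothelial markers, 1 was called higher in G4 against G2 (Eng, log2 0.66) and 0 in G3 against G1, with summed group means of 18506 normalised reads in G4, 17195 in G3, 15504 in G2 and 16504 in G1. Of 8 adipocyte markers, 1 was called higher in G4 against G2 (Fabp4, log2 0.37) and 0 in G3 against G1. In G4 against G2 6 of the 8 were positive, and in G3 against G1 1 of 8. Their summed group means were 6005 in G4, 5005 in G3, 4735 in G2 and 6062 in G1. Most of each sum was Fabp4 alone, at 5084, 4159, 3927 and 4680 in the same order. None of 10 Schwann cell or 10 macrophage markers was called in either comparison. Whether any of these cells had a part in the change of Kcnc4 was not tested.

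The 1 call among the 80 genes in G3 against G1, Kcnc4, stands beside 0.21% of all 28997 genes tested that were called. At an unadjusted p under 0.05 there were 4 of the 37 expressed channel genes, against 5.63% of the 15494 expressed genes. In G4 against G2 none of the 80 was called with the deposited values, where 1.38% of 14539 genes given an adjusted p were called. With limma, fitted only to genes with a total of at least 100, none of the 37 was called in G4 against G2. The authors gave no adjusted p there for channel genes with few reads, among them the expressed Kcnf1, Kcnip3, Kcnk1, Kcnn4 and Kcnt2. At an unadjusted p under 0.05 G4 against G2 held 7 of the 37, against 9.06% of 15494. In the mean of both comparisons Kcnc4 was called, against 1.65% of 15494 genes, and 4 of the 37 had an unadjusted p under 0.05, against 9.74%. Of the 37 expressed genes, 1 (Kcnc4) separated all libraries of G4 and G3 from all of G2 and G1 without overlap, as did 1.04% of the 15150 genes with recovered reads. Within single comparisons, libraries did not overlap for 5 of the 37 in G4 against G2 (14% of those 15150 genes) and for 3 in G3 against G1 (12%). The same held for 2 in G2 against G1 (7.81%) and for 5 in G4 against G3 (10.5%). The median log2 of the 37 was 0.06 in G4 against G2 with 20 positive, and 0.03 in G3 against G1 with 24 positive. Over all 15494 expressed genes both medians were 0.00 to 2 decimals. The median standard error of the 37 was 0.372 in G4 against G2 and 0.363 in G3 against G1, against 0.177 over all genes in both, so changes of the weakly expressed channels were harder to detect.

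**Figure D3:**
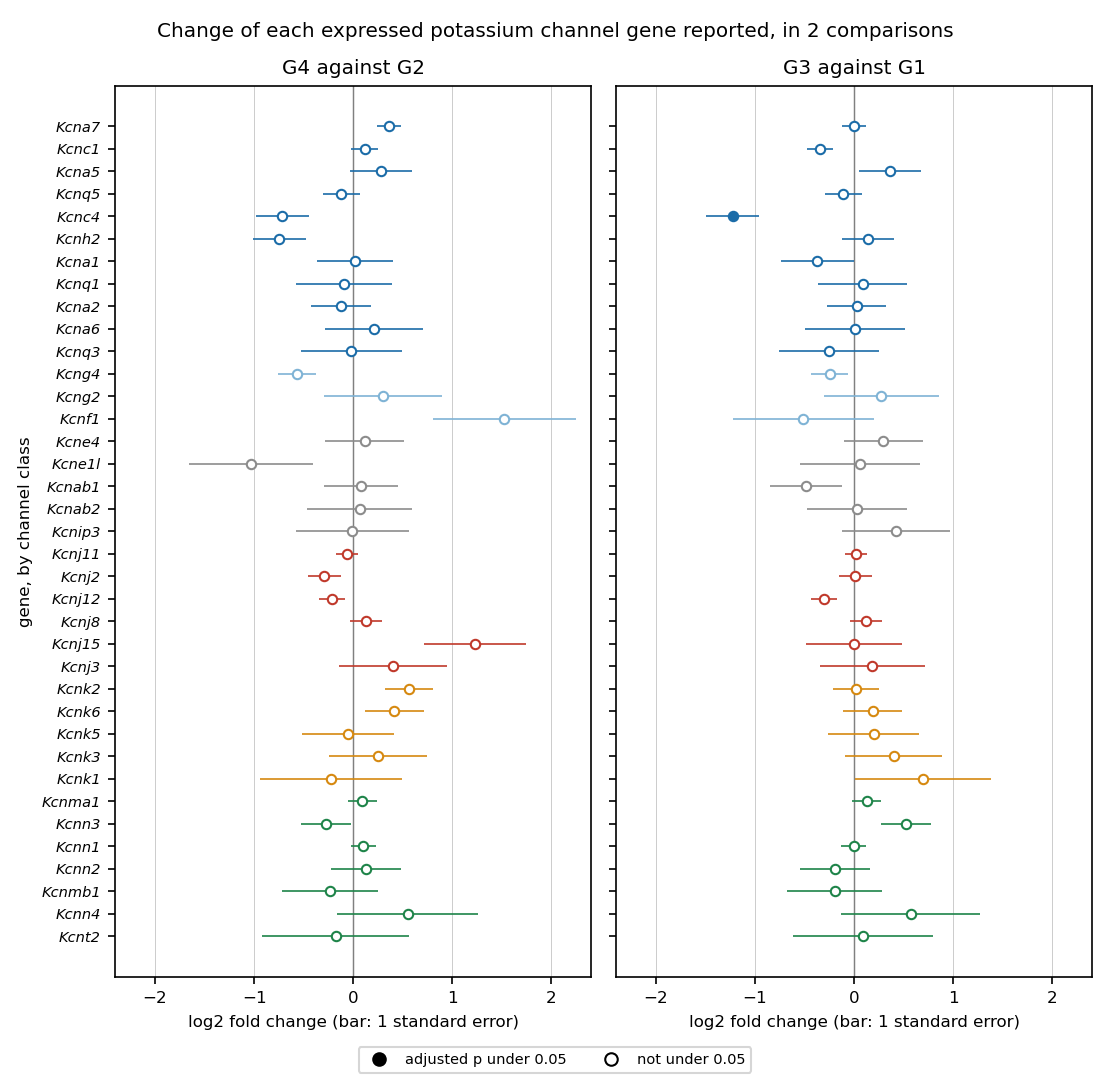
Log2 fold change with 1 standard error for each of 37 expressed channel genes in G4 against G2 (left) and G3 against G1 (right), coloured by class as in the plot of levels. The filled point passed an adjusted p of 0.05, which is Kcnc4 on the right (-1.23).

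The other pore-forming voltage-gated genes described did not pass in any test. In the KCNQ family of slowly activating channels, Kcnq5 averaged 614 ± 54.0 normalised reads in G4, 619 ± 51.8 in G3, 668 ± 116 in G2 and 668 ± 183 in G1 (SD, n = 3 each). Its log2 was -0.12 in G4 against G2 and -0.11 in G3 against G1 per the authors' deposited tables. Kcnq1 and Kcnq3 were weak, with 211 and 164 normalised reads in total. Kcnq5 and Kcnq1 overlap other genes with reads, Gm7658 on the same strand and Kcnq1ot1 on the opposite strand, and the sources used here do not say whether counting used the strand. In the Kv3 family, the abundant Kcnc1 had 2699, 2087 and 2043 normalised reads in G4 and 1847, 2009 and 1835 in G3, against 2466, 1938 and 1903 in G2 and 2363, 2645 and 2221 in G1. Its G3 libraries all lay below those of G1, and below those of G4 as well, while G4 and G2 overlapped. Per the authors' deposited table Kcnc1 had a log2 of -0.35 in G3 against G1 with an adjusted p of 0.989.

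Kcna7, a channel of striated muscle on chromosome 7 (45405653 to 45409763, plus strand), had its highest values in G4. It had 2996, 2647 and 2459 normalised reads in G4 and 2111, 2246 and 2082 in G3, against 2252, 1940 and 2115 in G2 and 1887, 2507 and 2050 in G1. The G4 libraries lay above all of G3 and G2, and overlapped G1 through its library with 2507. The authors' deposited table gave a log2 of 0.36 in G4 against G2, at an adjusted p of 0.0972 (implied standard error 0.117). For G4 against G3 the log2 of Kcna7 was 0.33 with an adjusted p of 0.708 per the authors' deposited table. Kcnh2, whose channel repolarises the heart, had 43.7, 77.3 and 64.8 normalised reads in G4, against 102, 85.8 and 124 in G2, with no overlap. Its log2 in G4 against G2 was -0.75 with an adjusted p of 0.182 per the authors' deposited table. Kcna5, a channel of blood vessels and heart, had 383, 323 and 362 normalised reads in G4 and 404, 306 and 365 in G3, against 412, 208 and 261 in G2 and 343, 129 and 365 in G1, which overlap in every pair.

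Of the silent modifiers, Kcng4 on chromosome 8 (119623854 to 119635680, minus strand) was the most abundant. It had 162, 255 and 272 normalised reads in G4 and 312, 298 and 328 in G3, against 321, 390 and 304 in G2 and 311, 438 and 363 in G1. Every G4 library lay below every library of the other 3 groups. Per the authors' deposited table its log2 was -0.56 in G4 against G2, at an adjusted p of 0.14 (implied standard error 0.193), and -0.45 in G4 against G3 with an adjusted p of 1.0. The mean over G3 against G1 and G4 against G2 was -0.41 with an adjusted p of 0.109. The other modifiers were weak. Kcng2 had 24.1 to 43.7 normalised reads in G4, 28.9 to 55.3 in G3, 14.0 to 36.0 in G2 and 10.5 to 69.5 in G1, and Kcns3 had 96.1 in total. Kcnf1, with 14.9, 5.44 and 21.6 normalised reads in G4 against 3.20, 4.38 and 7.10 in G2, had a log2 of 1.53 and an unadjusted p of 0.0339 per the authors' deposited table, which gives it no adjusted p.

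The auxiliary subunits showed no call. Kcne4, which dampens voltage-gated channels, was the highest of them per length at 1.01 RPKM. It averaged 79.0 ± 20.5 normalised reads in G4, 64.0 ± 27.5 in G3, 73.0 ± 24.5 in G2 and 52.3 ± 23.3 in G1 (SD, n = 3 each). Kcne1l, another single-span subunit, had 6.40, 19.6 and 3.81 normalised reads in G4 against 26.4, 22.8 and 12.2 in G2, which overlap. Kcnab1, a cytoplasmic beta subunit, had 17.2, 29.4 and 17.6 normalised reads in G3 against 36.6, 23.9 and 30.1 in G1, which also overlap.

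The inward rectifiers had no call in any comparison. Kcnj11 averaged 3184 ± 198 normalised reads in G4, 3089 ± 272 in G3, 3334 ± 218 in G2 and 3060 ± 424 in G1 (SD, n = 3 each), and its groups overlapped in every pair. Its partner Abcc9, the sulfonylurea receptor of the muscle ATP-sensitive channel, had 5403 ± 76.4 in G4, 5704 ± 202 in G3, 6090 ± 223 in G2 and 5628 ± 390 in G1 (SD, n = 3 each). The log2 of Abcc9 in G4 against G2 was -0.17 and was not called per the authors' deposited table, while the other receptor, Abcc8, had 163 normalised reads in total. Kcnj2, which is mutated in a human periodic paralysis, averaged 2077 ± 166 in G4, 2274 ± 139 in G3, 2545 ± 682 in G2 and 2258 ± 214 in G1 (SD, n = 3 each). The wide spread of G2 came from its library with 1758 normalised reads beside 2907 and 2970. Kcnj8 averaged 667 in both G4 and G3, against 612 in G2 and 614 in G1.

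Kcnj12 had 787, 753 and 766 normalised reads in G4 and 627, 733 and 619 in G3, against 1079, 829 and 766 in G2 and 821, 765 and 856 in G1. The G3 libraries lay below all libraries of the other 3 groups. Per the authors' deposited table its log2 was -0.30 in G3 against G1 at an adjusted p of 1.0 (implied standard error 0.131). The mean of G3 against G1 and G4 against G2 was -0.26 with an adjusted p of 0.161. Kcnj15, a weakly expressed rectifier, had 44.8, 28.3 and 11.4 normalised reads in G4 and 26.7, 32.0 and 23.9 in G3, against 15.2, 16.6 and 4.06 in G2 and 29.1, 26.8 and 26.9 in G1. Its G2 libraries lay below all of G1 and all of G3, and overlapped G4. The log2 of Kcnj15 was -1.18 in G2 against G1 and 1.23 in G4 against G2 per the authors' deposited tables, and the adjusted p-values were 1.0 and 0.335.

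**Figure D4:**
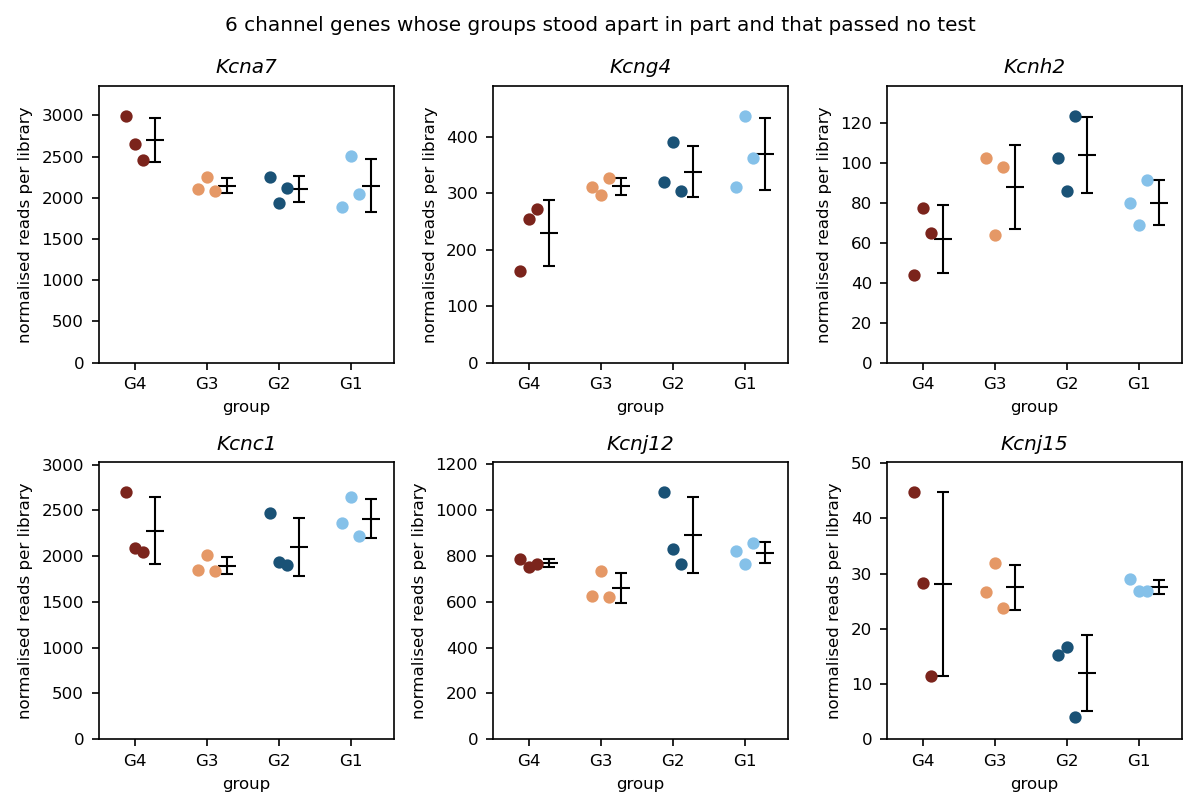
Normalised reads per library (points) of 6 channel genes by group, with the mean and SD of each group of 3. Each gene has at least 1 pair of groups without overlap, such as Kcna7 (2459 to 2996 in G4, 1940 to 2252 in G2), and none passed an adjusted p of 0.05 in any test.

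Calcium-activated channels also gave no call. Kcnma1, the gene with the most reads of the 80, had 4323, 3460 and 2737 normalised reads in G4 and 4191, 3568 and 3452 in G3, against 3416, 3182 and 3274 in G2 and 3618, 3075 and 3581 in G1. Its groups overlapped in all 4 comparisons, while every G3 library lay above every G2 library, a pair that was not compared. The log2 of Kcnma1 was 0.09 in G4 against G2 and 0.13 in G3 against G1 per the authors' deposited tables. Kcnma1 overlaps an antisense gene, 4930519K11Rik. Kcnmb1, the beta subunit of this channel in smooth muscle, had 304 normalised reads in total and overlaps Kcnip1 on the opposite strand. Lrrc38, a gamma subunit that lets the channel open at more negative voltage, was called lower in G4 against G2. It had 144, 271 and 123 normalised reads in G4 and 225, 242 and 221 in G3, against 317, 469 and 340 in G2 and 255, 333 and 276 in G1. The G4 libraries lay below all of G2, and those of G3 below all of G1. Per the authors' deposited table Lrrc38 fell in G4 against G2 by 1.06 on the log2 scale at an adjusted p of 0.00489 (implied standard error 0.251), while in G3 against G1 its log2 was -0.33 with an adjusted p of 1.0. The call in G4 against G2 was lost without library 1 of G4 (adjusted p = 0.0937), library 3 of G4 (0.217) or library 2 of G2 (0.188), and with limma (0.122). The gamma subunits Lrrc52 and Lrrc55, also expressed, had a log2 of 0.64 and 0.25 in G4 against G2 per the authors' deposited tables. In G3 against G1 they had -0.37 and 0.81, and neither was called in any test.

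The small-conductance channel Kcnn3, which fibres are known to express after loss of their nerve, had 289, 533 and 332 normalised reads in G4 and 679, 370 and 590 in G3, against 523, 458 and 416 in G2 and 377, 306 and 458 in G1. Its groups overlapped in all 4 comparisons, and its log2 of 0.52 in G3 against G1 and -0.51 in G4 against G3 had adjusted p-values of 1.0 per the authors' deposited tables. Its relative Kcnn1 averaged 525 ± 68.5 normalised reads in G4, 536 ± 35.3 in G3, 489 ± 60.2 in G2 and 538 ± 28.5 in G1 (SD, n = 3 each).

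The two-pore-domain channels, which carry background current, were weak. Kcnk2, a stretch-sensitive member, had 104, 72.9 and 71.2 normalised reads in G4 and 69.7, 94.3 and 66.5 in G3, against 47.2, 58.6 and 63.9 in G2 and 74.2, 78.4 and 76.3 in G1. All G2 libraries lay below those of the other 3 groups. The log2 of Kcnk2 in G4 against G2 was 0.56 with an adjusted p of 0.365 per the authors' deposited table. A processed pseudogene, Pdcd5-ps, lies within Kcnk2 on the same strand. Kcnk6 had 66.1, 68.6 and 59.7 normalised reads in G4, against 56.8, 58.8 and 50.2 in G3, which do not overlap, and its log2 of 0.23 was not called per the authors' deposited table. Kcnk5 had 248 normalised reads in total and overlapped between all groups.

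The 10 expressed channel genes not described singly were Kcna1, Kcna2, Kcna6, Kcnab2, Kcnip3, Kcnj3, Kcnk1, Kcnk3, Kcnn2 and Kcnn4, with totals of 110 (Kcnk1) to 901 (Kcnn2) normalised reads. Their log2 values were -0.22 (Kcnk1) to 0.55 (Kcnn4) in G4 against G2 and -0.37 (Kcna1) to 0.69 (Kcnk1) in G3 against G1 per the authors' deposited tables, and none was called.

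None of the 80 genes was called in G2 against G1, where 0.00428% of 23354 genes tested were called, or in G4 against G3, where 0.0394% of 17752 were. At an unadjusted p under 0.05 the authors' tables gave 1 of the 37 expressed channel genes in G2 against G1 (Kcnj15), against 2.35% of 15494 genes. They gave 4 of the 37 in G4 against G3, of which 2 were higher and 2 lower, against 4.83%. With limma, fitted only to the expressed genes, none of the 37 was called in either comparison. The difference between the G4 against G2 change and the G3 against G1 change was tested as an interaction in the expressed genes. None of the 37 was called, against 0.00645% of 15494 genes, and none was called with limma. At an unadjusted p under 0.05 it held 5 of the 37, against 4.12%. For Kcnc4 the difference was 0.51 with a standard error of 0.373 and an unadjusted p of 0.173. For the mean of G2 against G1 and G4 against G3 none of the 37 was called with the deposited values, against 0.0452% of 15494 genes, or with limma. In that mean 1 of the 37 (Kcng4) had an unadjusted p under 0.05, against 3.12%.

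Partner genes that work with these channels were counted in the mean of G3 against G1 and G4 against G2. Of 33 expressed partners 3 were called lower and 0 higher, against 1.65% of 15494 genes called in either direction. In G4 against G2 alone 1 was called lower (Lrrc38), against 1.38% of 14539 genes. In G3 against G1 alone 0 were called, against 0.21% of 28997. Besides Lrrc38 (-0.69, standard error 0.177, adjusted p = 0.00985), the partners called lower in the mean were Clcn1 and Cacnb1. Clcn1 is the chloride channel that stabilises the resting fibre, and Cacnb1 is a subunit of the calcium channel of the fibre. Clcn1 averaged 1995 ± 313 normalised reads in G4 and 2077 ± 238 in G3, against 2661 ± 321 in G2 and 2424 ± 200 in G1 (SD, n = 3 each), and its mean log2 was -0.32 with an adjusted p of 0.0451. Cacnb1 averaged 2421 ± 163 in G4 and 2247 ± 158 in G3, against 2783 ± 155 in G2 and 2635 ± 151 in G1 (SD, n = 3 each), with a mean log2 of -0.21 and an adjusted p of 0.0302. None of the 3 calls held in limma, where the adjusted p was 0.089 for Lrrc38, 0.146 for Clcn1 and 0.132 for Cacnb1. Each was also lost without some single libraries, with an adjusted p of up to 0.108 for Lrrc38 (without library 3 of G4), 0.274 for Clcn1 (without library 2 of G2) and 0.166 for Cacnb1 (without library 1 of G4). Of the 9 expressed genes of the sodium-potassium pump, which returns potassium to the fibre, none was called, and their median log2 was 0.13 in G4 against G2 and 0.02 in G3 against G1. None of 5 potassium-coupled cotransporters was called in these comparisons, and their medians were -0.04 and 0.10.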

How the data were processed

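Stranded mRNA libraries (KAPA kit, per the labels' protocols) of 12 soleus muscles were processed with Bowtie2 2.1.0, RSEM 1.2.15 and edgeR on mm10 or GRCm38, per the submitters' processing notes, which give no role or order of the tools. Per the file headers, the deposited tables of 4 comparisons hold totals, p-values, adjusted p-values, signed fold scores and log2 fold changes. The totals the authors deposited are a signal summed over 12 libraries. The values obey a negative binomial model with 1 dispersion per gene. Genes seen as a single read gave the library size factors. The standard errors implied by the p-values gave the dispersion and group means of each gene. Whole reads per library were recovered as the only vector in a window around those means that matches the deposited total and log2 values within 1e-10. This worked for 15150 of 15494 genes at or above a total of 100 (8.33 reads per library), and 199 of 200 simulated vectors. Recovered reads are a reconstruction. Refitting them returned the deposited log2 within 8.9e-06, which the way they were found fixes in advance.

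Calls use the adjusted p deposited by the authors, under 0.05. The tables leave it blank for low genes, and the table of G2 against G1 lists falls only, so its positive values, the interaction and both means were rebuilt from the other tables and adjusted by Benjamini-Hochberg. That adjustment covered genes with a total of at least 100, and genes below that total were given no rebuilt adjusted p. The limma fit also covered only genes with recovered reads and a total of at least 100. Implied standard errors come from each log2 and its p. On 7792 listed genes the rebuilt log2 differed by at most 1.0e-14. Tests were tried on simulated data with 15150 genes and 50 changed per fold, alike in G3 and G4, so the power of the interaction and of G4 against G3 was not tested. For the mean of G3 against G1 and G4 against G2, 36 were called at a fold of 1.5 and 43 at 2, and limma 3.58.1 called 27 and 43. Alternatives were other gene sets for the adjustment, a fold of at least 1.5, a median of 0, removal of trends on GC content, length and total, each library left out with the dispersion kept, and limma voom with size factors as library sizes. The deposited and rebuilt p-values set each log2 against a standard error that rests on 1 dispersion per gene, with 3 animals per group.

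The other 3 of the 83 channel genes are not reported here. All 80 described matched GENCODE M21 on GRCm38, and coordinates are 1-based. Levels per length use 1 transcript per gene, the longest protein-coding one. Group means of marker genes come from totals and log2 values. Members, classes and lists were chosen with earlier results of these data known. Named genes are those called in any of 7 tests, the 3 highest per length in each class, the 4 largest rises and falls per test at an unadjusted p under 0.05, and called partner genes. Others were named after their values were seen. RSEM divides reads that fit several transcripts by estimated abundance, which leaves overlapping and similar genes uncertain.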

Additional observations from a re-analysis of the deposited data

How the results depend on the processing

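No paired analysis was possible because the labels give no replicate numbers shared between groups. Of 505 values under an alternative, over the named channel genes in the tests where their unadjusted p was under 0.05 and the partner genes where called, 474 kept their direction and side of the threshold, 0 reversed and 31 lost the call. The 474 include values of tests that had no call to lose, so their share does not measure how stable the calls were. The 31 losses were 3 for Kcnc4 in G3 against G1, as given above, and, among the partner genes, 9 for Lrrc38, 10 for Clcn1 and 9 for Cacnb1, most of them with 1 library left out. Clcn1 also lost its call when the adjustment covered every gene with a p-value (0.0702). The number of the 80 channel genes called in G3 against G1 was 1 (Kcnc4), and it was 0 to 1 when 1 library was left out. With limma voom on the recovered reads, added after seeing the data and covering only the 37 expressed, it was 0. The other 6 counts of called channel genes were the same under all alternatives tried. With a total of at least 1000 required, 14 channel genes counted as expressed in place of 37. The median log2 of all genes was under 0.01 in size in every test. The values were already scaled by size factors, so setting that median to 0 does not test another choice of scaling. In G3 against G1 all genes called numbered 61 in the authors' deposited table, 30 and 37 without library 1 of G3 and without library 2 of G1, and 16 with limma. Genes near the limit have 8.33 reads per library, and the power to detect changes of such weak channels was not tested separately.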
